A study of Mus musculus with 23 samples.

Results

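The nuclear genes of the respiratory chain were followed by chromatin accessibility in 3T3-L1 cells, an established mouse line of preadipocytes. The members were the genes whose symbol begins with Nduf, Sdhaf, Uqcr, Uqcc, Atp5 or Cox plus a digit, together with Sdha, Sdhb, Sdhc and Sdhd, among the genes the authors gave to a peak. They numbered 84 of 11533 such genes over all days, with 81 of 11026 on day -2, 73 of 8998 on day -1 and 79 of 9366 on day 0. Each gene was represented on each day by the peak with the highest mean count.

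Complexes I to IV pass electrons from NADH and succinate through coenzyme Q and cytochrome c to oxygen, complexes I, III and IV pump protons on the way, and complex V, the ATP synthase, uses the proton gradient. Most of their subunits are encoded in the nucleus, while a few core subunits are encoded on mitochondrial DNA. Nuclear promoters of these genes are known to be bound by NRF1, by the ETS-family factor GABP and by YY1, and mitochondria increase when preadipocytes turn into fat cells.

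Cells were transfected on day -3 with 50 nM Kdm5c siRNA or 50 nM scramble, a non-targeting siRNA. Kdm5c is an X-linked enzyme that removes methyl groups from lysine 4 of histone H3. Nuclei were taken 24, 48 and 72 hours later, on days -2, -1 and 0, and assayed by ATAC-seq, which reads out accessible DNA by the cuts of a transposase loaded with adapters. There were 4 libraries per arm and day, except 3 for Kdm5c siRNA on day 0, in all 23. The labels do not say whether replicates were separate cultures, so the spread behind each p-value may be technical. ATAC-seq does not measure the Kdm5c transcript, so the knockdown was not checked here. More open cells and more cuts per cell cannot be told apart in these bulk libraries.

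Libraries held 4474964 to 14913397 counts over all peaks, and 781309 to 3345583 of these were nuclear. Of 10 preadipocyte and fibroblast marker genes, 9, 7 and 7 had a peak given to them on days -2, -1 and 0. Of 8 mature adipocyte markers only Lep had one, on days -2 and 0. Among marker genes of other cell types, day -2 had peaks for Csf1r and Cd14 (macrophage), Cdh5 and Kdr (endothelial), Krt8 (epithelial) and Myod1 and Myog (muscle). Kdr had one on days -1 and 0 and Cd14 on day 0, and the part of such cells in the results was not tested. Peaks of the respiratory chain genes held 2174 to 7649 counts per library.

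One promoter per complex is shown, because the peaks lie over these sequences. Each belongs to the subunit gene with the most counts per kb of peak on day -2 among those in the RefSeq promoter table. For complex III this was Uqcrfs1, since Uqcrc2, with more counts per kb, was not in that table. Each line gives the 250 bases before the RefSeq start in GRCm38.p6, on the strand of the gene. Capitals mark matches, on either strand, to 5 motifs: GCGCA, any base and GCGC in a row for NRF1, CCGGAAG for ETS factors, AAGATGGC for YY1, CCAAT for NF-Y and GGGCGG for SP factors. The day -2 peak covered all 250 bases for each gene except Uqcrfs1, where it covered a part.
Ndufs8, a core iron-sulfur subunit of complex I, chr19:3912775-3913024, minus strand: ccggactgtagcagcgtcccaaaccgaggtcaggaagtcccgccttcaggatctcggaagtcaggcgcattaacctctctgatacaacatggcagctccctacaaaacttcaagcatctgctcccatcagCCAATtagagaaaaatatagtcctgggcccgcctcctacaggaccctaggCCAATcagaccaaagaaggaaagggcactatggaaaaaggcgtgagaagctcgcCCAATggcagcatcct
Sdhb, the iron-sulfur subunit of complex II, chr4:140961021-140961270, plus strand: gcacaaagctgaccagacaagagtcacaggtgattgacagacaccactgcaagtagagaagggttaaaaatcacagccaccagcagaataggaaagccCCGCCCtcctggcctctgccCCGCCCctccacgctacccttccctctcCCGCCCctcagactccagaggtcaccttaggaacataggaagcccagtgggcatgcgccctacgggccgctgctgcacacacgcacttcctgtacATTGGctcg
Uqcrfs1, the Rieske iron-sulfur subunit of complex III, chr13:30545317-30545566, minus strand: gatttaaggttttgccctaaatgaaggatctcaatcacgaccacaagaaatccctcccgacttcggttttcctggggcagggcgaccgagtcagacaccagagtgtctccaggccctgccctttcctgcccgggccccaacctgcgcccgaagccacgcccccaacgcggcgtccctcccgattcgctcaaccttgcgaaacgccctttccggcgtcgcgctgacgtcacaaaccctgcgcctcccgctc
Ndufa4, a subunit of complex IV, chr6:11907451-11907700, minus strand: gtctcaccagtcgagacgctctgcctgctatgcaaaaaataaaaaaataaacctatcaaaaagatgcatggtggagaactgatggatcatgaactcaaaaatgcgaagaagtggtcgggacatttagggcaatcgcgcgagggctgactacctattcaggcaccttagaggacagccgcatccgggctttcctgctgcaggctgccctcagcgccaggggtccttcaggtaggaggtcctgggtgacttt
Atp5e, the epsilon subunit of complex V, chr2:174464102-174464351, minus strand: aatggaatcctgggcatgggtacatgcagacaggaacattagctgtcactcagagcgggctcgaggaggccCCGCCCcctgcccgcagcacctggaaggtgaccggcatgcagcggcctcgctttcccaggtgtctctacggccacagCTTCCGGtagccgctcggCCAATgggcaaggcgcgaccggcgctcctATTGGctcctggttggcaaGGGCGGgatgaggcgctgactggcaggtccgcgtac

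The NRF1 motif stood, on either strand, in the promoters of 17 of the 70 members in the RefSeq promoter table, counted over the 250 bases before to 50 after each start. That is 24.3%, against 10.2% of the 8513 genes with a peak from the authors and 3.20% of the 8979 other protein-coding genes. The letters are shown for members that carry more than 1 copy and for those whose peak changed between days.
Ndufb4, 22 bases before the start, chr16:37654371-37654400, minus strand: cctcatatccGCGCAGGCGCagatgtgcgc
Ndufb4, 79 bases before, chr16:37654428-37654457, minus strand: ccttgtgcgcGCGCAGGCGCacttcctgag
Ndufb4, 191 bases before, chr16:37654540-37654569, minus strand: gagaagcagtGCGCACGCGCagaatacgcg
Sdha, 10 bases before, chr13:74350231-74350260, minus strand: gcgactcggtGCGCAAGCGCagtctgtcgc
Sdha, 55 bases before, chr13:74350276-74350305, minus strand: ggggcgtgttGCGCAGGCGCagaatcttcc
Sdha, 98 bases before, chr13:74350319-74350348, minus strand: cgtttacaggGCGCAGGCGCaccaccactc
Cox6a1, 117 bases before, chr5:115349056-115349085, minus strand: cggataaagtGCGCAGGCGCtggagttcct
Cox6a1, 162 bases before, chr5:115349101-115349130, minus strand: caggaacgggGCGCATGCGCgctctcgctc
Uqcrc1, 5 bases after, chr9:108936643-108936672, plus strand: cttccttacaGCGCTTGCGCctcagactcc
Uqcrc1, 30 bases after, chr9:108936668-108936697, plus strand: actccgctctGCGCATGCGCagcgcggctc
Ndufa5, 190 bases before, chr6:24527697-24527726, minus strand: tgtgtgagctGCGCAGGCGCaaatctacct
Ndufaf4, 113 bases before, chr4:24897960-24897989, plus strand: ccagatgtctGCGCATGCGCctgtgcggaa
Atp5g3, 12 bases after, chr2:73911295-73911324, minus strand: gagccgcaccGCGCTTGCGCgcccagcccc

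The ETS motif CCGGAAG stood in 21 of the 70 promoters, against 17.2% of the genes with a peak from the authors. The YY1 motif AAGATGGC stood in 10 (14.3%), against 4.49%. In Ndufa3, Ndufa9 and Ndufs7 it lay 22, 29 and 24 bases after the start. These 3 windows are printed as examples of the shared core.
Ndufa3, chr7:3617384-3617413, plus strand: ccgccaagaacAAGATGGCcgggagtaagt
Ndufa9, chr6:126849097-126849126, minus strand: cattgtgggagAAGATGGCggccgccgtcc
Ndufs7, chr10:80249462-80249491, plus strand: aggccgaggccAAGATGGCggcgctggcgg

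CCAAT stood in 42.9% of the members' promoters, against 38.5% of those of genes with a peak from the authors, and TATAAA in 8.57%, against 6.84%. GGGCGG stood in 51.4%, against 66.3%, and the E-box CACGTG in 7.14%, against 10.3%. The median GC content of the members' promoters was 58.7%, against 61.3%. A match is a description of the sequence and not a bound site. The siRNA fold changes of tested members with and without the NRF1 motif had medians of -0.11 and 0.01 on day -2 (17 and 49). Day -1 gave -0.10 and -0.05 (17 and 41), and day 0 gave -0.03 and 0.04 (17 and 49) (log2, Kdm5c siRNA over scramble). Members with the ETS or the YY1 motif had the higher median on every day, but on day -2 the medians were nearly equal. With and without the motif they were then -0.003 and -0.007 for ETS, and -0.002 and -0.005 for YY1. For YY1 the median was 0.04 against -0.08 on day -1 (8 and 50 members) and 0.11 against -0.02 on day 0 (10 and 56). CCAAT and GGGCGG differed in direction between days, and none of these differences was tested.

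**Figure D1:**
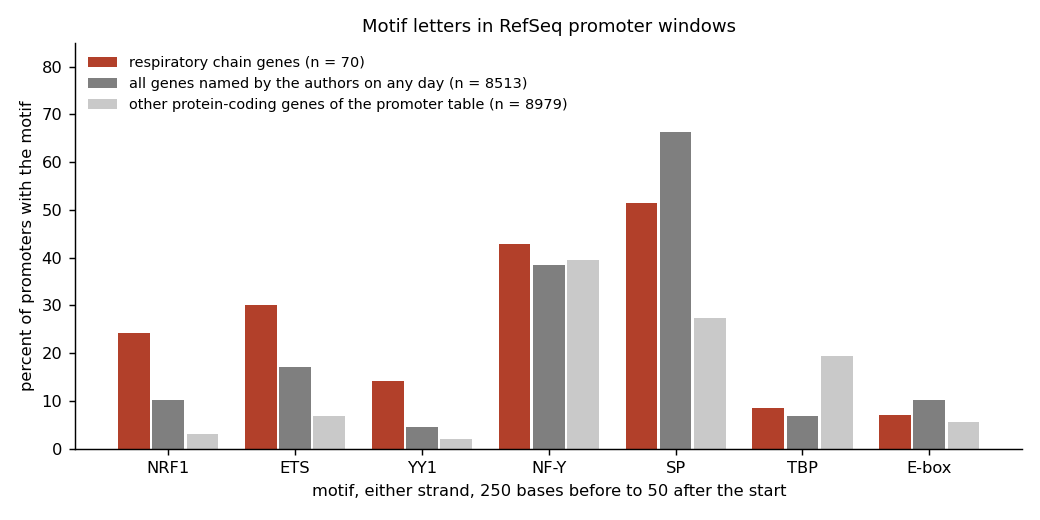
Percent of promoters, from 250 bases before to 50 after the start, that hold each motif on either strand, for respiratory chain genes, all genes with a peak from the authors, and other protein-coding genes. NRF1 stands in 24.3% of the respiratory chain promoters, against 10.2% and 3.20%. NF-Y marks the CCAAT letters and TBP the TATAAA letters.

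Levels were set side by side only per kb of peak, in normalised counts. The median of the members was 81.6 per kb on day -2, 63.7 on day -1 and 70.7 on day 0. Over the highest peak of each gene named by the authors, members included, it was 84.7, 64.6 and 75.4. The members' median was the lower on each day, with 35, 35 and 34 members above that of the named genes. Over all peaks with an authors' gene, lesser peaks included, the median was 82.1, 63.1 and 73.6. The members' peaks were 732 bases wide at the median on day -2, 586 on day -1 and 615 on day 0. Where the promoter table held the gene, the chosen peak covered its own start in 64 of 67, 56 of 63 and 61 of 67 members.

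Among complex I subunits on day -2, Ndufs8 was the most accessible, at 202 ± 16.7 counts per kb with Kdm5c siRNA and 180 ± 17.5 with scramble (SD, n = 4 each). Ndufa12, an accessory subunit, was the least accessible, at 53.2 ± 16.3 and 44.2 ± 8.69. In Ndufa12 the arms differed by less than the SD of the Kdm5c siRNA libraries. Of the core subunits, Ndufv1, which carries the flavin that accepts electrons from NADH, had 86.7 ± 19.4 with Kdm5c siRNA and 118 ± 12.9 with scramble. Ndufs1 was not analysed here. Among the assembly factors of complex I, Ndufaf3 was highest at 87.5 ± 6.48 and 75.2 ± 9.66, and Ndufaf1 lowest at 46.7 ± 15.3 and 69.9 ± 30.6.

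Of the complex II subunits, ordered by the mean over arms, Sdhd, a membrane anchor, was lowest at 52.4 ± 14.4 with Kdm5c siRNA and 57.99 ± 4.37 with scramble. Sdhb was highest at 93.3 ± 11.8 and 96.9 ± 16.4. Sdha, the flavoprotein, had 51.4 ± 4.69 and 61.1 ± 24.0, and Sdhc, the other anchor, 59.7 ± 11.2 and 56.6 ± 18.5. Of its assembly factors, Sdhaf3 was highest at 142 ± 23.7 and 136 ± 38.5, and Sdhaf4 lowest at 72.0 ± 15.2 and 79.1 ± 17.5. In complex III the core protein Uqcrc2 was highest at 106 ± 17.8 and 106 ± 10.6, and Uqcrc1 lowest at 47.9 ± 10.8 and 52.6 ± 24.1. The assembly factors ran between Uqcc2 at 93.8 ± 7.39 and 119 ± 38.2 and Uqcc1 at 64.6 ± 8.36 and 63.1 ± 11.1.

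In complex IV, Ndufa4 had 155 ± 17.8 with Kdm5c siRNA and 152 ± 16.1 with scramble, and Cox7b 60.1 ± 26.3 and 43.7 ± 15.4. Cox18, which helps insert the mitochondrially encoded Cox2 protein, was above both, at 195 ± 14.3 and 203 ± 15.9. Cox10, an enzyme of heme A synthesis, had 60.8 ± 16.0 and 58.2 ± 10.03. In complex V, Atp5e was highest at 157 ± 20.2 and 172 ± 10.3. Atp5l was lowest at 33.6 ± 18.1 and 53.0 ± 35.4, and its low counts left it out of the test. The catalytic subunit Atp5b had 112 ± 5.97 and 113 ± 16.6, and its partner Atp5a1 53.3 ± 7.76 and 40.8 ± 6.78.

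Some complex IV subunits exist as a ubiquitous and a tissue-restricted form. The ubiquitous Cox4i1, Cox6a1, Cox6b1, Cox7a2, Cox7b and Cox8a each had a peak from the authors on all 3 days. Of their restricted partners, Cox4i2, a form known from lung, had one on day -2, at 70.5 ± 11.2 with Kdm5c siRNA and 56.6 ± 64.8 with scramble. Cox6b2, known from testis, had one on day 0, at 41.4 ± 45.4 (SD, n = 3) and 39.2 ± 10.8 (SD, n = 4). For Cox7a1 and Cox8b, the forms of heart, muscle and brown fat, and for Cox7b2 the raw count tables held no peak over the start on any day. Cox6a2, Cox8c and Ndufa4l2 were not analysed here.

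On days when they had no row, members were not analysed under their own name. These were Atp5j, Cox6b2 and Uqcr11 on day -2, and Atp5d, Atp5l, Atp5s, Cox4i2 and Ndufaf1 on day 0. On day -1 they included Atp5d, Atp5s, Cox4i2, Cox6b2, Cox6c, Ndufa1, Ndufaf1, Ndufb10, Ndufb8 and Ndufs4. A peak over a start shared with a neighbour can carry the other name. A further 29 coding genes match the symbols and had no row on any day. Of these, 22 had a start in the promoter table, and the others could not be looked up. A raw peak lay over the start of 18, and in 16 it carried another name. Examples are Ndufs3 in the peak named Kbtbd4, Cox11 in Stxbp4 and Ndufa11 in Vmac. Atp5md carried its older symbol Usmg5. None of these peaks was called between arms on any day by edgeR, and 1 of 18, 1 of 17 and 1 of 18 had an unadjusted p under 0.05 on days -2, -1 and 0. Conversely, the chosen peaks of 14.8%, 13.7% and 13.9% of members also covered the start of another coding gene, such as Mrpl47 for Ndufb5 and Lrrc41 for Uqcrh, and in those peaks the 2 genes cannot be told apart. The same held for 10.1%, 11.4% and 11.3% of all named genes.

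No respiratory chain gene was called between Kdm5c siRNA and scramble on any day. The test was edgeR's quasi-likelihood F test over all peaks of a day, called at a Benjamini-Hochberg adjusted p under 0.05. Of 79, 67 and 77 members tested on days -2, -1 and 0, 0 were called, and 0 by DESeq2. The background was nearly as low, since 0.00404%, 0% and 0.00352% of all tested peaks were called. At an unadjusted p under 0.05 there were 2, 2 and 6 members, or 2.53%, 2.99% and 7.79%, against 4.63%, 5.38% and 5.99% of all peaks. DESeq2 gave 3, 2 and 6 members at that level. The arms did not overlap in 2, 3 and 3 members, against 2.87%, 3.27% and 6.22% of all peaks.

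The median fold change of the tested members was 0.00 on day -2, -0.07 on day -1 and 0.02 on day 0 (log2, Kdm5c siRNA over scramble), against 0.00, 0.00 and -0.01 for all peaks. It was above 0 in 39 of 79, 28 of 67 and 40 of 77 members. On day -2 the fold changes ranged between -0.71 (Ndufb8) and 0.47 (Ndufa13). The range was -0.54 (Sdhb) to 0.63 (Ndufc2) for day -1, and -0.81 (Uqcrfs1) to 0.82 (Uqcr11) for day 0. These values are relative to the bulk of peaks, which TMM scaling sets to no change. Scaling by total counts, mitochondrial ones included, moved the median of all peaks by 0.42, 0.38 and 0.57 and put 75, 63 and 74 members above 0. Relative to that shift 38, 28 and 40 members lay above it, as many as lay above 0 under TMM on days -1 and 0 and 1 fewer on day -2.

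By complex, the median fold changes of subunits on day -2 were 0.00 for complex I, -0.09 for II, 0.01 for III, 0.13 for IV and -0.02 for V. On day -1 they were -0.08, -0.14, 0.25, -0.19 and 0.11 in the same order, and on day 0 -0.04, -0.07, -0.19, 0.10 and 0.10. The assembly factors of complex I had medians of -0.14 over 5 genes on day -2, -0.35 over 4 on day -1 and 0.12 over 4 on day 0. With the mitochondrial ratio as a covariate these were 0.21, -0.43 and 0.26.

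**Figure D2:**
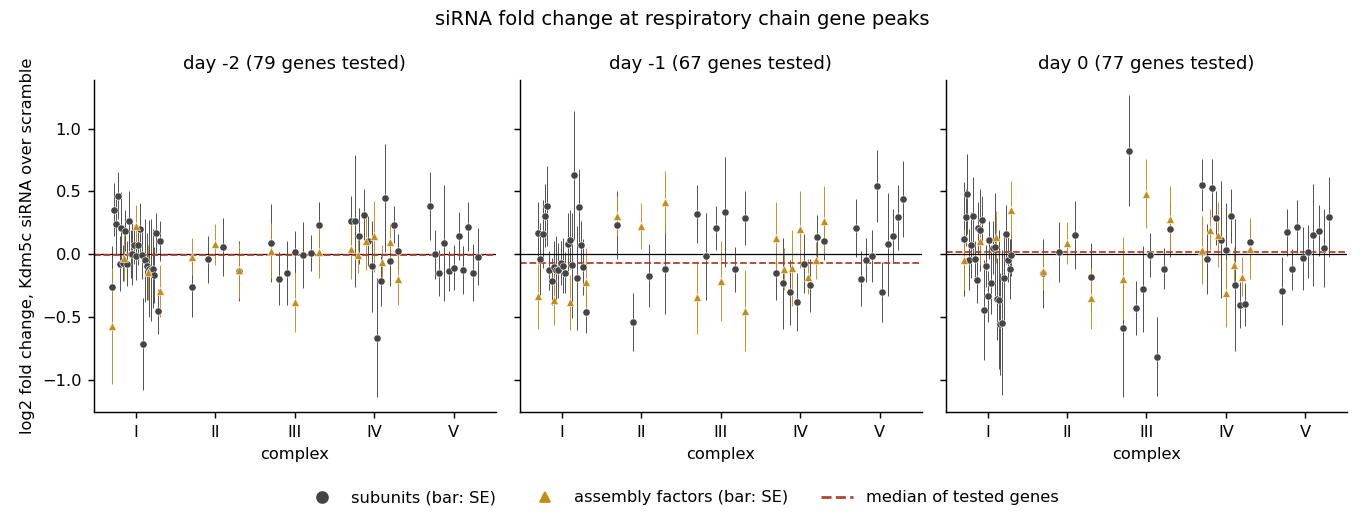
log2 fold change of each tested respiratory chain gene, Kdm5c siRNA over scramble, by complex (x axis) and day, with bars for the SE, circles for subunits and triangles for assembly factors. The points scatter on both sides of 0 in every complex on every day, and the dashed medians lie at 0.00, -0.07 and 0.02.

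The members with the smallest p-values are given with every library, although none was called. On day -2 Ndufv1 (chr19:4012456-4013207) had 76.3, 67.8, 44.0 and 72.5 normalised counts with Kdm5c siRNA, against 89.0, 101, 86.7 and 77.8 with scramble. All 4 scramble libraries lay above the Kdm5c siRNA libraries, with a fold change of -0.45 ± 0.18 (log2, SE) and an adjusted p of 0.98 by edgeR. Ndufa13, an accessory subunit of complex I, showed the opposite order, with 92.0, 84.7, 63.9 and 76.0 with Kdm5c siRNA, against 53.1, 61.5, 51.1 and 62.1 with scramble (0.47 ± 0.19, adjusted p = 0.98, edgeR). Its peak (chr8:69902894-69903491) did not cover its own RefSeq start. The arms overlapped in the next 4 genes, the accessory subunits Ndufb8 (-0.71 ± 0.37) and Ndufa10 (0.35 ± 0.21), the complex IV subunit Cox8a (0.24 ± 0.15) and the complex III assembly factor Uqcc2 (-0.38 ± 0.24).

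On day -1 the core subunit Ndufv2 (chr17:66101127-66101996), which holds an iron-sulfur cluster, had 73.9, 75.4, 58.7 and 61.3 normalised counts with Kdm5c siRNA, against 84.0, 85.2, 90.9 and 109 with scramble. The arms did not overlap (-0.46 ± 0.16, adjusted p = 0.86, edgeR). Sdhb had 28.6, 36.5, 39.8 and 24.2 with Kdm5c siRNA, against 45.3, 51.3, 51.0 and 37.9 with scramble, and 1 scramble library lay within the range of the other arm (-0.54 ± 0.23, adjusted p = 0.86, edgeR). Sdhaf2, the factor that attaches flavin to Sdha, had a fold change of 0.30 ± 0.16, and Ndufaf3, an assembly factor of complex I, -0.36 ± 0.20. The arms did not overlap in either. They overlapped in Atp5g3, a gene for the c subunit of the ATP synthase ring (0.54 ± 0.29), and in Ndufaf4, a further assembly factor (-0.38 ± 0.22).

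On day 0 Cox4i1 (chr8:120667669-120668510) had 79.2, 70.1 and 61.3 normalised counts with Kdm5c siRNA, against 34.3, 38.8, 66.8 and 49.9 with scramble, and scramble replicate 3 fell within the range of the Kdm5c siRNA libraries (0.55 ± 0.21, adjusted p = 0.71, edgeR). Uqcrfs1 had 12.8, 25.7 and 18.3 with Kdm5c siRNA, against 25.7, 29.4, 52.7 and 28.1 with scramble, and the arms overlapped by 1 library on each side (-0.81 ± 0.31, adjusted p = 0.71, edgeR). Cox8a had 75.4, 83.4 and 79.6, against 122, 97.6, 94.9 and 105, with no overlap (-0.40 ± 0.17, adjusted p = 0.77, edgeR). Cox8a had the other sign on day -2. Cox5b, a structural subunit of complex IV, did not overlap either (0.53 ± 0.23), nor did Uqcrb, a small subunit of complex III (-0.43 ± 0.21), while Cox7c did (-0.40 ± 0.18).

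Tests of the difference between days were made on the 61 members whose peaks matched 1 to 1 on all days. None of the 3 differences of the siRNA effect called a member, and 0% of all 13674 matched peaks were called. At an unadjusted p under 0.05 there were 3 members for day -1 minus day -2, 7 for day 0 minus day -1 and 2 for day 0 minus day -2, against 4.92%, 5.21% and 6.40% of all peaks. As percents of the 61 members these were 4.92%, 11.5% and 3.28%, so only day 0 minus day -1 lay above its background. DESeq2 called 0 as well, with 3, 6 and 2 members at that level. The smallest p belonged to Cox8a, whose siRNA fold change differed by -0.67 ± 0.22 between day 0 and day -2 (adjusted p = 0.62, edgeR).

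The 4 related gene lists gave no call either. They were cytochrome c and coenzyme Q genes (21), other assembly factors (28), regulators of mitochondrial biogenesis (23) and citric acid cycle genes (19), and 0 genes of each were called on each day. At an unadjusted p under 0.05 there were 0, 1, 0 and 0 of 17, 21, 17 and 16 tested genes on day -2, 1, 1, 0 and 1 of 17, 20, 16 and 16 on day -1, and 1, 0, 0 and 1 of 17, 19, 17 and 16 on day 0. The lists' median fold changes were -0.02, -0.01, -0.04 and -0.02 on day -2, then 0.07, 0.03, 0.08 and -0.11 on day -1, and 0.04, -0.07, -0.10 and 0.08 for day 0. The single genes were Ecsit, an assembly factor of complex I (-0.55 ± 0.25) on day -2 and, on day -1, Coq3 of coenzyme Q synthesis (-0.44 ± 0.22), Sco2, a copper chaperone of complex IV (0.35 ± 0.17), and Pdhx of the pyruvate dehydrogenase complex (-0.33 ± 0.16). On day 0 they were Pdss1, which makes the coenzyme Q side chain (0.58 ± 0.20), and Pdha1 of pyruvate dehydrogenase (0.51 ± 0.17). Nrf1, the gene of the factor named above, had -0.30 ± 0.16 on day 0 (adjusted p = 0.85, edgeR).

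Mitochondrial peaks held 63.8% ± 6.26 of the counts with Kdm5c siRNA and 73.5% ± 2.85 with scramble on day -2 (SD, n = 4 each). Day -1 had 90.02% ± 2.49 and 92.3% ± 1.01 in the same order, and day 0 had 84.1% ± 4.58 (n = 3) and 88.8% ± 1.77 (n = 4). The log2 ratio of mitochondrial to nuclear counts differed by -0.65, -0.39 and -0.57 on the 3 days (Kdm5c siRNA minus scramble). Exact permutation tests, two-sided, gave p = 0.0286, 0.171 and 0.0571, and 0.0857, 0.171 and 0.0857 after adjustment over the 3 days. The smallest exact p these designs allow is 0.0286 on days -2 and -1 and 0.0571 on day 0.

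The share of nuclear counts in respiratory chain gene peaks is given next for every library. On day -2 it was 0.213%, 0.200%, 0.233% and 0.229% with Kdm5c siRNA, against 0.222%, 0.224%, 0.224% and 0.211% with scramble. On day -1 it was 0.275%, 0.284%, 0.288% and 0.275%, against 0.271%, 0.284%, 0.278% and 0.298%, and on day 0 0.289%, 0.307% and 0.303%, against 0.296%, 0.285%, 0.288% and 0.296%. The arms overlapped on every day. Kdm5c siRNA and scramble libraries averaged 0.219% ± 0.0152 and 0.220% ± 0.00622 on day -2 (SD). Day -1 gave 0.281% ± 0.00664 and 0.283% ± 0.0115, and day 0 gave 0.300% ± 0.00968 and 0.291% ± 0.00542.

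As a share of all counts, mitochondrial ones included, the same peaks held 0.0788% ± 0.0102 with Kdm5c siRNA and 0.0583% ± 0.00705 with scramble on day -2. Day -1 had 0.0279% ± 0.00637 and 0.0216% ± 0.00236, and day 0 had 0.0478% ± 0.0143 and 0.0324% ± 0.00499. With Kdm5c siRNA that was 135%, 129% and 147% of scramble, against 99.5%, 99.4% and 103% for the share of nuclear counts. The share of all counts falls by arithmetic as the mitochondrial share grows.

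**Figure D3:**
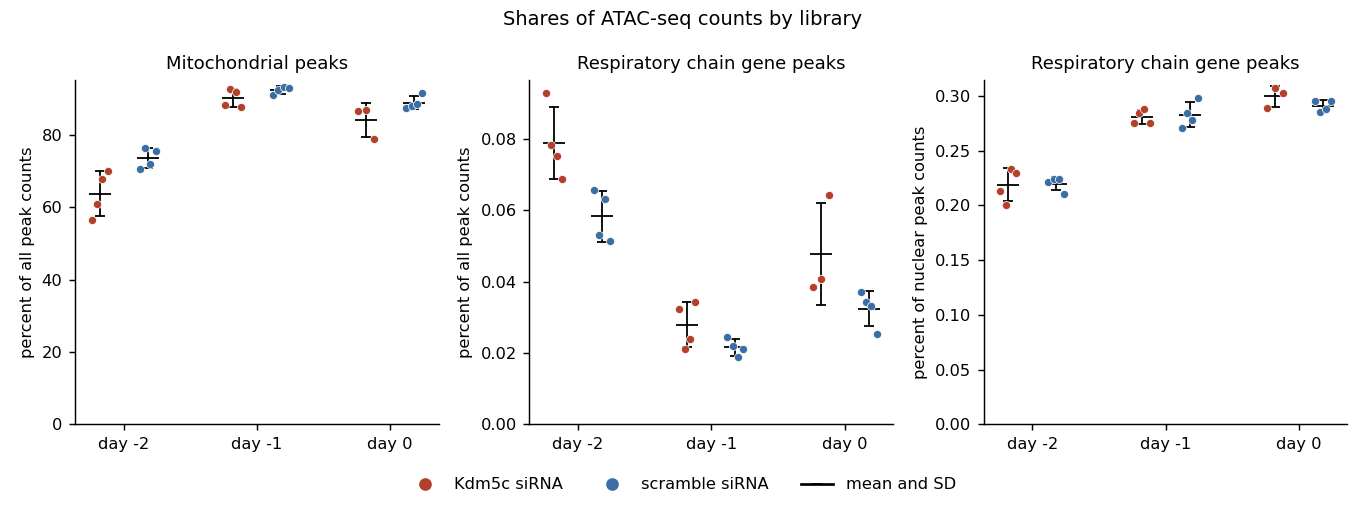
Shares of ATAC-seq counts in each library by day, with the mean and SD, for mitochondrial peaks and for respiratory chain gene peaks as a percent of all and of nuclear counts. The share of all counts averages 0.0788% with Kdm5c siRNA and 0.0583% with scramble on day -2, while the share of nuclear counts averages 0.219% and 0.220%.

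Within days, the share of nuclear counts and the log2 mitochondrial to nuclear ratio had Pearson correlations of 0.41 over 8 libraries on day -2, 0.58 over 8 on day -1 and -0.40 over 7 on day 0, and Spearman's rho of 0.12, 0.60 and -0.39. Without the 2 libraries farthest from the median ratio they were -0.73, 0.45 and -0.57, so the sign on day -2 rested on those libraries. As deviations from the group means over all 23 libraries, Pearson's r was 0.42 and rho 0.49. For the share of all named peaks r was 0.37, 0.08 and -0.35 by day, and 0.30 over the deviations with a rho of 0.35. These are descriptions with no test, and the measures share the nuclear total.

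Gene by gene, the correlation of a peak's deviations with those of the ratio had a median of 0.07 over the 61 members, with a range between -0.48 and 0.58 and 39 above 0. It was 0.02 at the median of 6942 matched named peaks. In a fit with the ratio as a slope, 0 of 61 members were called by edgeR and 0 by DESeq2, against 0.0293% of all peaks. Mitochondrial peaks, whose counts enter the ratio, were not left out of this background. Of the 6942 matched named peaks, all nuclear, 0 were called by either tool. Both tools gave 2 members at an unadjusted p under 0.05, against 4.18% of all peaks. These were Cox17, a copper chaperone of complex IV (0.77 ± 0.29 per doubling of the ratio, adjusted p = 1.00, edgeR), and the accessory subunit Ndufa9 (0.55 ± 0.27). Within single days the slope had an unadjusted p under 0.05 in 7 of 79, 5 of 67 and 1 of 77 members, against 5.26%, 4.32% and 4.25% of all peaks.

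With the ratio as a covariate in the test of the arms, 0 members were called on any day. The members' median fold change then came to 0.12, 0.10 and 0.04, with 46, 36 and 41 above 0. The median was 0.046, 0.014 and 0.015 for all named peaks, and -0.001, -0.005 and -0.004 for all peaks. All 18 fold changes of the smallest p-values kept their sign, with 8 of them larger and 10 smaller in size. Ndufv1 on day -2 came to -0.64, Ndufa13 to 0.29, Ndufv2 on day -1 to -0.39 and Cox4i1 on day 0 to 0.78. The ratio and the arm moved together, so their parts cannot be told apart in these libraries.

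Between days, single respiratory chain genes were called in both arms, at a rate near or below that of all matched peaks. From day -2 to day -1, 4 members fell with Kdm5c siRNA and 0 rose, and 2 fell and 2 rose with scramble. Of all matched peaks 2.8% fell and 3.57% rose with Kdm5c siRNA, 6.37% in all, and 2.57% fell and 3.17% rose with scramble, 5.73% in all, so 4 of 61 in each arm is near the background. From day -1 to day 0, 0 members were called in either arm. Of all matched peaks 1.51% rose and 2.28% fell with Kdm5c siRNA, 3.79% in all, and 2.7% rose and 4.16% fell with scramble, 6.86% in all. There were 13 and 8 members at an unadjusted p under 0.05, against 17.5% and 21.5% of all peaks. From day -2 to day -1 such members were 11 in each arm, against 20.7% of all peaks with Kdm5c siRNA and 19.6% with scramble. DESeq2 called 1 and 0 members from day -1 to day 0, and the 1 was Cox5b, named after its value was seen. From day -2 to day 0, 3 rose and 0 fell with Kdm5c siRNA, and 4 rose and 1 fell with scramble. DESeq2 called 2 with Kdm5c siRNA, Ndufb5 higher and Uqcc1 lower, and 5 with scramble. Of all matched peaks 7.27% rose and 7.69% fell with Kdm5c siRNA, 15% in all, and 9.16% rose and 11.5% fell with scramble, 20.6% in all. Over these days edgeR called 4.92% of the members with Kdm5c siRNA and 8.20% with scramble, less often than all matched peaks. Members at an unadjusted p under 0.05 were 13 and 12, against 28% and 31.7%.

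Ndufb5, an accessory subunit of complex I, rose from day -2 to day 0 in both arms. With Kdm5c siRNA it had 81.0, 85.6, 92.3 and 93.6 normalised counts on day -2, 99.2, 90.1, 118 and 106 on day -1, then 116, 159 and 150 on day 0. With scramble it had 91.7, 67.8, 82.5 and 89.2 on day -2, 84.2, 128, 114 and 132 on day -1, then 102, 142, 142 and 151 on day 0. Every day 0 library was above every day -2 library of its arm. The changes were 0.70 ± 0.15 with Kdm5c siRNA (adjusted p = 0.000216, edgeR) and 0.68 ± 0.14 with scramble (adjusted p = 0.00013, edgeR). The scramble change was already called on day -1 (0.46 ± 0.15, adjusted p = 0.0444, edgeR). DESeq2 did not make that call, and it was lost without scramble replicate 2, 3 or 4 of day -2 or of day -1. The peak was 1083, 1082 and 1277 bases wide on days -2, -1 and 0 and also covers the start of Mrpl47, a mitochondrial ribosome gene.

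Ndufa5, an accessory subunit with an NRF1 motif, rose by 0.44 ± 0.15 with Kdm5c siRNA (adjusted p = 0.0263, edgeR) and by 0.44 ± 0.14 with scramble (adjusted p = 0.0141, edgeR) over the same days. It averaged 112 ± 6.68, 132 ± 25.8 and 154 ± 25.6 with Kdm5c siRNA and 116 ± 19.4, 143 ± 37.6 and 157 ± 16.0 with scramble on days -2, -1 and 0 (SD). Ndufaf4 rose with Kdm5c siRNA by 0.66 ± 0.22 (adjusted p = 0.031, edgeR) and had 0.42 ± 0.22 with scramble (adjusted p = 0.17, edgeR). Its peak was 654 bases wide on day -2, against 853 on day 0. With Kdm5c siRNA, Ndufa5 was not called without replicate 2 or 3 of day -2 or replicate 1 or 2 of day 0, and Ndufaf4 not without replicate 1 or 4 of day -2 or replicate 4 of day 0. With scramble, Ndufa5 was not called without replicate 2 or 4 of day -2 or replicate 3 of day 0. DESeq2 called neither Ndufa5 nor Ndufaf4 with Kdm5c siRNA. For Ndufaf4 the difference between the arms' changes was 0.24 ± 0.31 (adjusted p = 0.93, edgeR).

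Cox7c, a small subunit of complex IV, rose with scramble by 0.84 ± 0.19 between day -2 and day 0 (adjusted p = 0.000336, edgeR). It had 48.8, 54.3, 52.1 and 46.4 counts on day -2, 67.6, 86.5, 48.2 and 74.7 on day -1, then 108, 88.2, 69.0 and 93.0 on day 0. All 4 libraries of day 0 were above those of day -2. With Kdm5c siRNA it had 45.8, 43.7, 45.9 and 62.1 on day -2, 31.0, 68.6, 61.0 and 74.9 on day -1, then 62.1, 81.1 and 59.7 on day 0, where the days overlap (0.46 ± 0.20, adjusted p = 0.11, edgeR). Uqcrc2 rose with scramble by 0.43 ± 0.16 (adjusted p = 0.0446, edgeR), and had 0.37 ± 0.16 with Kdm5c siRNA (adjusted p = 0.12, edgeR). Its peak widened to 1290 bases on day 0, against 827 on day -2. Ndufv1, whose peak was 751 bases wide on day -2 and 411 on day 0, fell over these days with scramble (-0.53 ± 0.20, adjusted p = 0.0458, edgeR). With Kdm5c siRNA it had -0.23 ± 0.21, and the difference was 0.30 ± 0.29 (adjusted p = 0.90, edgeR). Leaving out any 1 scramble library of these days ended the call of Uqcrc2, and the call of Ndufv1 held only without replicate 4 of day -2 or replicate 3 of day 0. Cox7c and Ndufb5 were called whichever library was left out.

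Uqcrh, the hinge protein of complex III, fell from day -2 to day -1 in both arms, by 0.67 on the log2 scale with Kdm5c siRNA (SE 0.15, adjusted p = 0.00159, edgeR) and by 0.53 with scramble (SE 0.15, adjusted p = 0.0192, edgeR). With Kdm5c siRNA it had 127, 105, 138 and 123 counts on day -2, 57.0, 94.4, 82.2 and 77.6 on day -1, then 85.9, 105 and 113 on day 0. With scramble it had 128, 105, 115 and 135, then 104, 80.7, 74.1 and 74.7, and then 104, 122, 121 and 101. Every library of day -1 was below every library of day -2 of its arm. The scramble call was lost without replicate 4 of day -2 or replicate 2, 3 or 4 of day -1. The peak was 2133 bases wide on day -2, against 1142 on day -1 and 1568 on day 0, so a narrower region was counted on day -1.

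Uqcc3, an assembly factor of complex III, fell by 0.97 on the log2 scale from day -2 to day -1 with Kdm5c siRNA (SE 0.26, adjusted p = 0.0114, edgeR), with means of 43.5 ± 14.6 and 22.0 ± 6.47. Its peak was 759 bases wide on day -2, against 394 on day -1, which no longer covered the start. Ndufaf3 fell by 0.63 (SE 0.18, adjusted p = 0.0149, edgeR) and Ndufa13 by 0.70 (SE 0.22, adjusted p = 0.0361, edgeR), with peaks that were also narrower on day -1 (443 bases for Ndufa13, against 597 on day -2). With scramble their changes were -0.49 ± 0.25 for Uqcc3, -0.04 ± 0.18 for Ndufaf3 and -0.38 ± 0.24 for Ndufa13, none of them called. The call of Ndufa13 was lost without replicate 1, 2 or 4 of day -2 or replicate 2, 3 or 4 of day -1. Uqcc3 was not called without replicate 4 of day -2 or replicate 3 of day -1, nor Ndufaf3 without replicate 1 of day -1. Uqcrh was called with Kdm5c siRNA whichever library was left out.

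With scramble, Atp5g3 fell by 0.84 (SE 0.25, adjusted p = 0.0268, edgeR) from day -2 to day -1, with 53.7, 49.4, 40.5 and 48.9 counts on day -2 and 40.3, 29.98, 12.1 and 21.0 on day -1. All 4 libraries of day -1 were below those of day -2. The peak of Atp5g3 was 998 bases wide on day -2, against 717 on day -1. Ndufv2 rose by 0.53 ± 0.15 (adjusted p = 0.0204, edgeR), with 70.2, 98.9, 73.1 and 79.2 and then 105, 107, 114 and 136. With Kdm5c siRNA the same changes were -0.46 ± 0.23 for Atp5g3 and -0.05 ± 0.15 for Ndufv2. The differences between the arms, 0.38 ± 0.34 for Atp5g3 and -0.58 ± 0.22 for Ndufv2, had adjusted p-values of 0.96 by edgeR. Without scramble replicate 4 of day -2, or without that of day -1, 0 of the 4 scramble calls between these days were made. Without scramble replicate 3 of day -1 only Ndufv2 was called, and without replicate 1 or 2 of day -2 or replicate 2 of day -1 only 2 were. Without replicate 3 of day -2, Ndufv2 and Ndufb5 were not called.

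**Figure D4:**
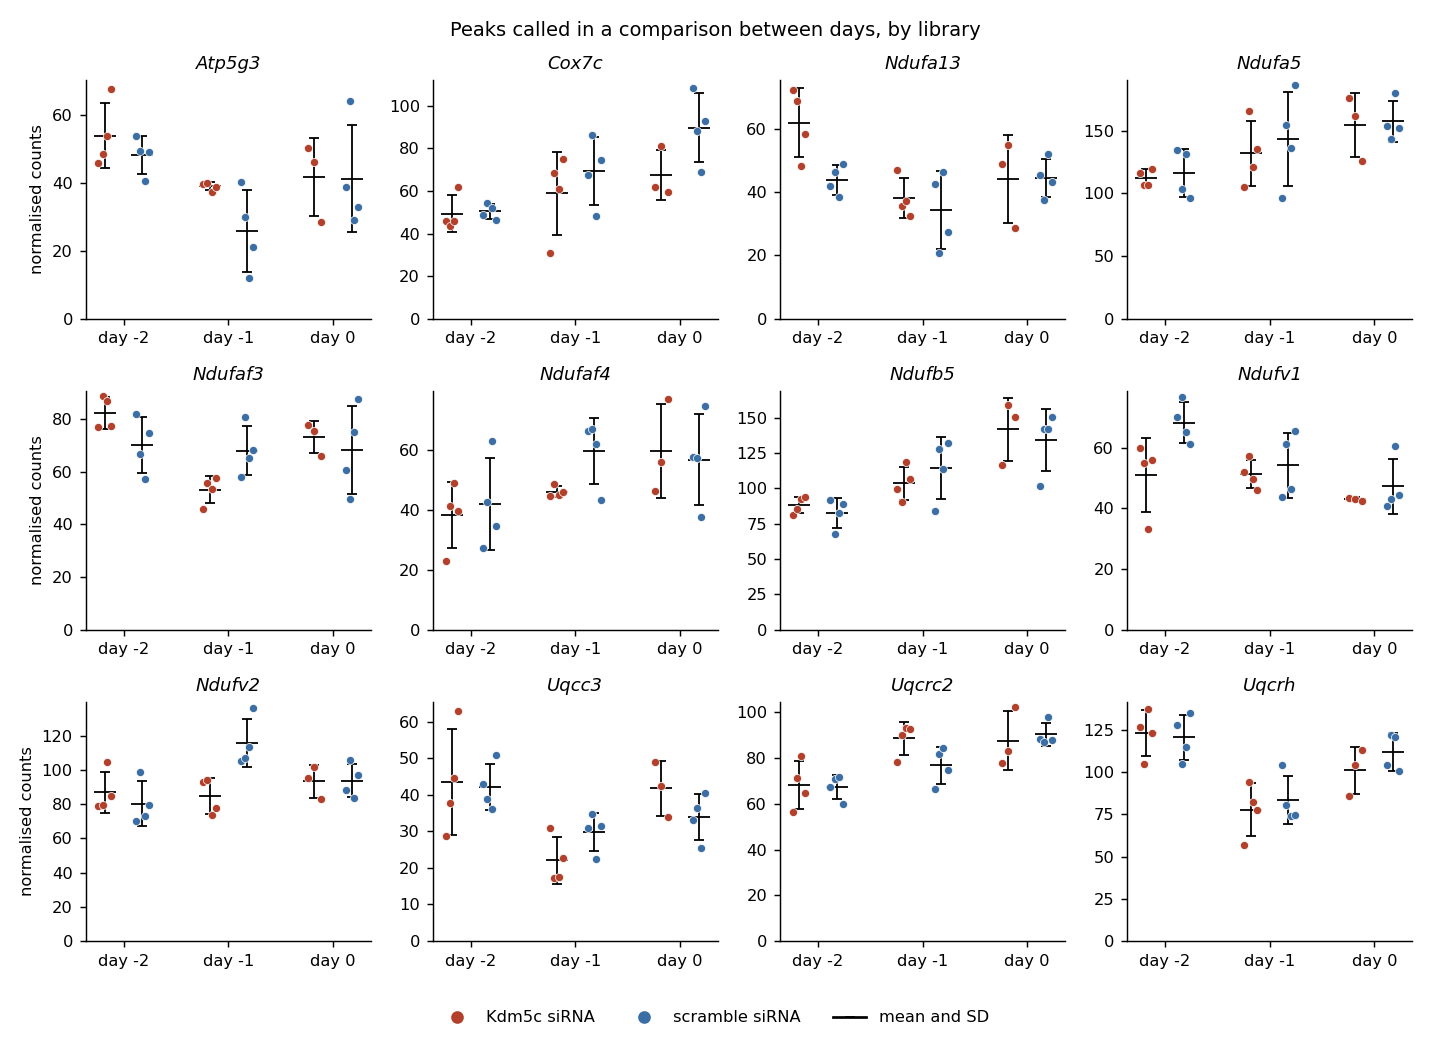
Normalised counts on peaks matched over days for the 12 members called in a comparison between days, by library, with the mean and SD (y axis from 0; x axis day). Ndufb5 averages 142 with Kdm5c siRNA and 134 with scramble on day 0, against 88.1 and 82.8 on day -2, and Uqcrh is lowest on day -1 in both arms.

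The libraries' composition also differed between days. On day -2 the mitochondrial share ranged between 56.4% and 76.3%. It ranged between 87.6% and 93.2% on day -1. On day 0 it ranged between 78.8% and 91.4%, so that day -2 did not overlap with the later days. With the ratio as a covariate 0 members were called in every one of the 6 comparisons between days, and the time and the ratio cannot be told apart. Under scaling by total counts all 61 members were called lower on day -1 than on day -2 in both arms, where the median of all peaks moved by -1.38 and -1.36, and the rise of Ndufb5 turned into -0.04 with Kdm5c siRNA and -0.26 with scramble. The directions above are relative to the other peaks.

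The peak sets of the days also differed. The authors' tables hold 84019, 31970 and 37054 peaks on days -2, -1 and 0. The members' share of nuclear counts was 0.219% with Kdm5c siRNA on day -2, 0.281% on day -1 and 0.300% on day 0. All named peaks held 35.3%, 45.6% and 46.3% of nuclear counts in the same libraries, and the members' share of those named counts was 0.619%, 0.616% and 0.646%. Of all nuclear counts on the peaks matched over days, the 61 matched members held 0.376% ± 0.0111, 0.352% ± 0.00781 and 0.379% ± 0.0102 with Kdm5c siRNA. With scramble they held 0.368% ± 0.00724, 0.357% ± 0.0122 and 0.370% ± 0.00820. On these peaks the mean was lowest on day -1 in both arms, and the scramble ranges overlapped (0.358% to 0.375% on day -2, against 0.344% to 0.372% on day -1). The share of all named matched peaks was also lowest on day -1, at 54.1% with Kdm5c siRNA and 54.05% with scramble, against 55.4% and 54.8% on day -2 and 55.9% and 55.3% on day 0.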

How the data were processed

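ATAC-seq was done by the authors on 23 libraries. The submitters' processing notes list cutadapt (2.3), Bowtie2 (2.2.9), MACS2 (2.1.1), HTSeq (0.9.1), DESeq2 (1.24.0) and the build GRCm38. What each tool did, its settings, the treatment of duplicates and multiply mapping reads, and any shift for the transposase are not stated there. The authors deposited whole-number counts per peak for each day, which entered every test. The authors also deposited a normalised signal for peaks with a gene name, equal to the count over 1 constant per library, which supplied only gene names and the choice of each gene's peak.

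The members, lists and tests were chosen with earlier results of these data known. Arms were tested per day with edgeR 4.0.16 in R 4.3.3 (TMM, filterByExpr, quasi-likelihood F test, Benjamini-Hochberg over all peaks). Days and the mitochondrial slope were tested in 1 fit of the 13675 peaks that matched 1 to 1 on all days at a reciprocal overlap of 50%, of which 13674 passed the filter. Normalised counts are counts scaled by TMM effective library sizes. Genes named are those called in a test, the 6 smallest p-values of each day, the highest and lowest per complex, those without a row on a day, and sets of isoforms and core subunits, of which some values are not reported here. Peak positions were copied unchanged, and no source tells if a start of 0 or of 1 was meant for a chromosome's first base. Promoters came from RefSeq (GRCm38.p6), which held 70 of the 84 members. Alternatives were other size factors, no low-count filter, mitochondrial peaks left out, DESeq2 1.42.0, a replicate block, the mitochondrial ratio as covariate, an overlap of 80% and each replicate left out. The scripts were tested on simulated data, and exact permutation tests used scipy 1.17.1.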

Additional observations from a re-analysis of the deposited data

Results flagged for a closer look

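In a group of 4 libraries, a single library stood apart from the others in 4 of 100 groups checked, and chance flags about 1 in 20. The share of nuclear counts in respiratory chain gene peaks was 0.211% in scramble replicate 4 on day -2, against 0.222% to 0.224% in the other 3. Uqcrfs1 had 52.7 normalised counts in scramble replicate 3 on day 0, against 25.7 to 29.4 in the others. On matched peaks, Cox7c had 62.1 in Kdm5c siRNA replicate 4 on day -2, against 43.7 to 45.9, and Uqcrc2 had 98.1 in scramble replicate 3 on day 0, against 87.0 to 88.5.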

How the results depend on the processing

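With the alternatives run, 0 members were called between arms except under scaling by total counts, which called 1 on day -2 (Ndufa13). That scaling moved the members' median to 0.42, 0.32 and 0.59 on days -2, -1 and 0, and the mitochondrial covariate to 0.12 and 0.10 on days -2 and -1. As a share of all counts the Kdm5c siRNA value was 135%, 129% and 147% of scramble. Over all peaks 2, 0 and 1 were called. On day -2 total scaling gave 759, RLE factors 1, leaving out mitochondrial peaks 1, DESeq2 0 and the covariate 0. On day -1 total scaling gave 1. On day 0 RLE gave 2, no mitochondrial peaks 2, no filter 6, and total scaling, DESeq2 and the covariate 0.

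Total scaling reversed Uqcc2 on day -2 (0.058), Ndufaf3 on day -1 (0.026) and, on day 0, Cox8a (0.16), Cox7c (0.14) and Uqcrb (0.16). Between day -2 and day 0 it reversed Ndufb5 (-0.044), Ndufaf4 (-0.016) and Ndufa5 (-0.35) with Kdm5c siRNA, and Cox7c (-0.092), Ndufb5 (-0.26), Ndufa5 (-0.51) and Uqcrc2 (-0.51) with scramble. Between day -2 and day -1 with scramble it reversed Ndufv2 (-0.82) and Ndufb5 (-0.91), and the covariate reversed Ndufv2 (-0.072). Total scaling counts mitochondrial reads, whose share differs between days.

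The members called between days, in the order -1 against -2, 0 against -1 and 0 against -2, were 4, 0 and 3 with Kdm5c siRNA and 4, 0 and 5 with scramble. Total scaling gave 61, 36 and 28, and 61, 10 and 50, and 54 for the slope. The covariate gave 0 for each. The overlap of 80%, which leaves 21 members, gave 0 and 1 with Kdm5c siRNA and 0 and 2 with scramble for the comparisons with day -2. Members with peak widths within 20%, an alternative chosen after seeing the data, gave 0 for -1 against -2 with Kdm5c siRNA, and 2 and 3 with scramble. DESeq2 gave 4, 1 and 2 with Kdm5c siRNA and 3, 0 and 5 with scramble. Leaving out 1 library gave 2 to 4, 0 to 1 and 2 to 4 with Kdm5c siRNA, and 0 to 5, 0 to 2 and 3 to 5 with scramble. It gave medians of -0.074 to 0.017 on day -2 and -0.062 to 0.013 on day -1 for the members' siRNA fold change. It gave 2 to 11 peaks on day -2 and 0 to 10 on day 0 over all peaks.

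Between the arms of a day, correlations of deviations lay between -0.042 and 0.147 for libraries of the same number. For libraries of different numbers they lay between -0.156 and 0.116. Such correlations cannot show whether replicate numbers pair the samples. A replicate block gave 5, 1 and 0 peaks over all, 0 members on each day, and 4, 0 and 3, and 4, 0 and 5 members between days. Nuclear depth was 781309 to 3345583 counts per library, and its part in the number of calls was not tested.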

Other observations

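The peak over the start of Ndufs6, an accessory subunit of complex I, carried the name of its neighbour Mrpl36 and so was not among the members. It was picked after its values were seen. It averaged 33.8 ± 13.4 normalised counts with Kdm5c siRNA and 58.2 ± 12.6 with scramble on day -2, 19.7 ± 3.70 and 35.0 ± 8.65 on day -1 (SD, n = 4 each), and 25.2 ± 8.72 (n = 3) and 33.4 ± 4.98 (n = 4) on day 0. The fold changes were -0.75 ± 0.24, -0.82 ± 0.28 and -0.34 ± 0.29 (log2, SE), with adjusted p-values of 0.98, 0.86 and 0.93 by edgeR.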
